A study of Rattus norvegicus with 6 samples.

Results

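The MHC class II and costimulation genes are 10 rat genes of antigen presentation: RT1-Da, RT1-Db1, RT1-Ba, RT1-Bb, RT1-DMa, RT1-DMb, Cd74, Ciita, Cd83 and Cd86. They were taken by symbol from the array's annotation, which assigns 17 probe sets to a single member gene, and each gene is represented by the probe set chosen by its brightness, the highest mean over the 6 arrays. That choice used no group label, but the genes were proposed with earlier results of these data in view. All 10 had a brightest probe set above the level used as a filter on dim signal, among 10424 genes tested of 14217 with a probe set of their own. Of the 17 probe sets, 15 passed that filter.

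RNA came from mammospheres, floating spheres that single mammary cells form when they cannot attach, and was measured on Affymetrix arrays after a two-cycle amplification. The donors were female Sprague Dawley rats aged 55 days at the start. The hCG group (3 arrays, numbered 5, 6 and 7) received recombinant human chorionic gonadotropin, the placental hormone that acts through the luteinizing hormone receptor, at 100 IU per day into the peritoneum for 21 days. The Control group (3 arrays, also 5, 6 and 7) received phosphate buffered saline. In both groups glands were removed 21 days after dosing ended, and cells enriched for epithelium were cultured for 7 days with EGF, bFGF and heparin before spheres were caught on a 40 µm strainer. The p-values set the difference between groups against the scatter of these 6 samples within groups. Whether arrays stand for separate animals is not stated, so some of that scatter may be technical. Whether the p-values extend to other animals is therefore not known.

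MHC class II molecules show peptides from engulfed proteins to helper T cells. An alpha chain and a beta chain pair in the endoplasmic reticulum around the invariant chain Cd74, which blocks the groove, and the DM heterodimer later helps to exchange the last piece of Cd74 for a peptide. Dendritic cells and B cells express these genes constitutively and macrophages on activation, and epithelia, mammary epithelium included, can be induced to do so by interferon gamma through the coactivator Ciita. Cd86 gives the T cell its second signal through CD28, and Cd83 marks mature dendritic cells and is known to keep class II and Cd86 on the cell surface.

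Ciita does not bind DNA itself but joins factors on a conserved module of class II promoters, in which an X box, bound by the RFX complex, lies upstream of a Y box, bound by NF-Y. The stretches of 5 class II promoters around this module are shown because class II genes share that switch. They are from RefSeq on build GRCr8, written 5′ to 3′ along the gene, with capitals for the letters CTGATTGG (Y box core), GATTGG (a shorter NF-Y core, contained in the former) and AGCAACNG (X box core). The array itself carries no coordinates.
RT1-Da, chr20:4515278-4515387, plus strand: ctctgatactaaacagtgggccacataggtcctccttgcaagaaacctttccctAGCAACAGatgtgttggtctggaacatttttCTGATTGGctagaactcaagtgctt
RT1-Db1, chr20:4560221-4560330, minus strand: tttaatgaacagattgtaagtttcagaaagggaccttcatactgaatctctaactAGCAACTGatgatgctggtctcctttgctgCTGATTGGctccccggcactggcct
RT1-Ba, chr20:4576926-4577035, plus strand: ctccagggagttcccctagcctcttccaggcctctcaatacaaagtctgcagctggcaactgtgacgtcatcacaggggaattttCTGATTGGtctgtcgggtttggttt
RT1-Bb, chr20:4604158-4604267, minus strand: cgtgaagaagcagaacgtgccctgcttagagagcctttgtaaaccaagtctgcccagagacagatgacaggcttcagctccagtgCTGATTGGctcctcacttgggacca
RT1-DMa, chr20:4712376-4712485, minus strand: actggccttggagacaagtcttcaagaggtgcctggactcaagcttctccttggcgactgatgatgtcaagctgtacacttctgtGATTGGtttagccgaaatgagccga

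Promoter windows of 300 bases, 250 before and 50 after the annotated start, were on hand for 8 of the 10 genes. There was none for RT1-DMb or Ciita, so the Ciita promoter was not searched for any of these letters. CTGATTGG was found, on either strand, in the windows of RT1-Da, RT1-Db1, RT1-Ba and RT1-Bb and in 3.5% of all 33469 windows, and GATTGG also in that of RT1-DMa and in 14.8% of all. AGCAACNG was found in RT1-Da and RT1-Db1, 31 and 30 bases upstream of the Y box core measured from first base to first base, and in 4.72% of all windows. AGCAACAG, contained in that motif, was found in RT1-Da and in 2.06% of all. The search takes exact letters, so an X box that differs from them would be missed and left in lower case above. Both cores together were found in 0.155% of all windows. The interferon gamma activated letters TTCNNNGAA were in none of the 8 windows and in 8.87% of all. A loose NF-kappaB consensus was found in 5 of the 8, RT1-Ba, RT1-Bb, Cd74, Cd83 and Cd86, and in 17.9% of all windows. A stricter, T-rich form contained in it was found in Cd74 and Cd86 and in 1.53% of all. A match of letters is a description and shows no binding.

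Of the 10 genes, 3 fell in hCG spheres and 0 rose: RT1-Da, Cd83 and Cd86 (limma, Benjamini-Hochberg adjusted over all genes, n = 3 arrays per group). The same test called 0.815% of all 10424 genes lower and 1.01% higher. Changes below are hCG minus Control on the log2 scale of the deposited values, and a call means an adjusted p under 0.05. The median change was -0.58 over the 10 genes, of which 9 lay below 0, and 0.03 over all genes, of which 44.2% lay below 0. In 6 of the 10 genes all hCG values lay below all Control values, as in 12.3% of all genes, and in 0 they lay above, as in 19.3%.

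RT1-Da encodes the alpha chain of the RT1-D molecule, the rat counterpart of HLA-DR. It measured 6.13, 6.02 and 6.15 on Control 5, 6 and 7, and 4.36, 5.10 and 4.66 on hCG 5, 6 and 7. The control arrays lay close together, and every hCG array lay well below them. The change came to -1.39 (SE 0.18), 2.63-fold lower, with limma adjusted p = 0.0353.

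RT1-Db1 encodes the beta chain that pairs with it. Its brightest probe set measured 5.10, 5.13 and 5.77 on Control 5, 6 and 7, and 3.96, 4.56 and 4.08 on hCG 5, 6 and 7, so the groups did not overlap. The change was -1.13 (SE 0.23), 2.19-fold, and did not pass (limma adjusted p = 0.0573). This probe set is of a kind that can match several transcripts, and RT1-Db2 is a close relative, so which beta chain gene gave the signal is uncertain. The other RT1-Db1 probe set lay between 2.18 and 2.55 on all 6 arrays, below the filter level of 2.67, with no order between groups.

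RT1-Ba encodes the alpha chain of RT1-B, the counterpart of HLA-DQ, and its 4 probe sets disagreed. The brightest lay between 5.17 and 5.45 on all 6 arrays, with overlapping groups and a change of -0.04 (95% interval -0.28 to 0.19, limma adjusted p = 0.822). The next in brightness measured 6.31, 5.11 and 6.52 on Control 5, 6 and 7 and 3.25, 3.71 and 2.62 on hCG 5, 6 and 7. These groups lay far apart, and this was the largest change of any of the probe sets, -2.79 (SE 0.42), with limma adjusted p = 0.0405 over all 18625 tested probe sets. The third, drawn from the same source sequence as the brightest, lay between 4.32 and 4.52 throughout (change -0.02). The fourth measured 4.13, 4.73 and 4.71 on the Control arrays and 2.99, 4.05 and 3.97 on hCG arrays, lower without overlap, but its change of -0.85 (SE 0.31) did not pass (adjusted p = 0.169 over all probe sets). The gene was therefore called or not depending on the probe set. With its probe sets averaged, the change was -0.93 and passed (limma adjusted p = 0.035).

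RT1-Bb encodes the partner beta chain, and its 2 probe sets had opposite signs. The brighter measured 1.79, 4.11 and 3.35 on Control 5, 6 and 7, and 3.23, 4.09 and 3.83 on hCG 5, 6 and 7. Control 5 was the lowest of all, and the groups overlapped. The change was 0.63 (SE 0.56, limma adjusted p = 0.528), and -0.01 without Control 5. The dimmer measured 3.17, 2.79 and 3.82 on the Control arrays and 2.07, 2.55 and 2.15 on hCG arrays. Here every hCG value was below every Control value, and below the filter level too, with a change of -1.004 (SE 0.26) that did not pass (adjusted p = 0.0948 over all probe sets).

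Cd74, the invariant chain gene, measured 8.10, 7.87 and 8.55 on Control 5, 6 and 7, and 5.36, 7.02 and 6.28 on hCG 5, 6 and 7. The groups did not overlap, but the hCG arrays spread widely, with hCG 5 lowest and hCG 6 nearest to the controls. The change was -1.96 (SE 0.40), 3.88-fold lower, and missed the threshold (limma adjusted p = 0.058). RT1-Da and RT1-Db1 showed the same order of the hCG arrays, 5 lowest and 6 highest.

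The DM genes, which encode the peptide exchange factor, did not pass. RT1-DMa lay between 4.02 and 4.50 on the control arrays and between 4.12 and 4.33 on hCG arrays, with a change of -0.01 (95% interval -0.35 to 0.33). RT1-DMb measured 3.31, 3.22 and 3.82 against 3.18, 2.87 and 3.27, again with overlap, and a change of -0.34 (95% interval -0.77 to 0.09, limma adjusted p = 0.303). The interval of RT1-DMa does not reach the changes measured for RT1-Da, Cd74 or Cd83. No test compared genes with each other.

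Ciita, the coactivator of the class II genes, was dim. Its brighter probe set measured 2.98, 2.87 and 2.94 on the Control arrays and 2.86, 2.87 and 2.87 on hCG arrays, and the groups parted by only 0.001 before rounding. The change was -0.06 (95% interval -0.24 to 0.11, limma adjusted p = 0.636). The other probe set lay below the filter level, between 2.04 and 2.23 on control and 1.73 and 2.02 on hCG arrays. Signal this near the filter level limits what change could be seen.

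Cd83 measured 4.89, 5.01 and 4.99 on Control 5, 6 and 7, and 3.66, 3.88 and 3.50 on hCG 5, 6 and 7. Both groups were tight, and the gap between them was wider than the range within either. The change was -1.29 (SE 0.11), 2.44-fold lower, with limma adjusted p = 0.0289, and Cd83 ranked 3 of all 10424 genes by p.

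Cd86 measured 4.10, 4.04 and 4.42 on Control 5, 6 and 7, and 3.42, 3.22 and 3.48 on hCG 5, 6 and 7. Every hCG array was below every control array. The change was -0.81 (SE 0.13), 1.76-fold lower, with limma adjusted p = 0.0382. Its second probe set, near the filter level, overlapped between groups and had a change of -0.29 (SE 0.15, adjusted p = 0.304 over all probe sets).

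**Figure D1:**
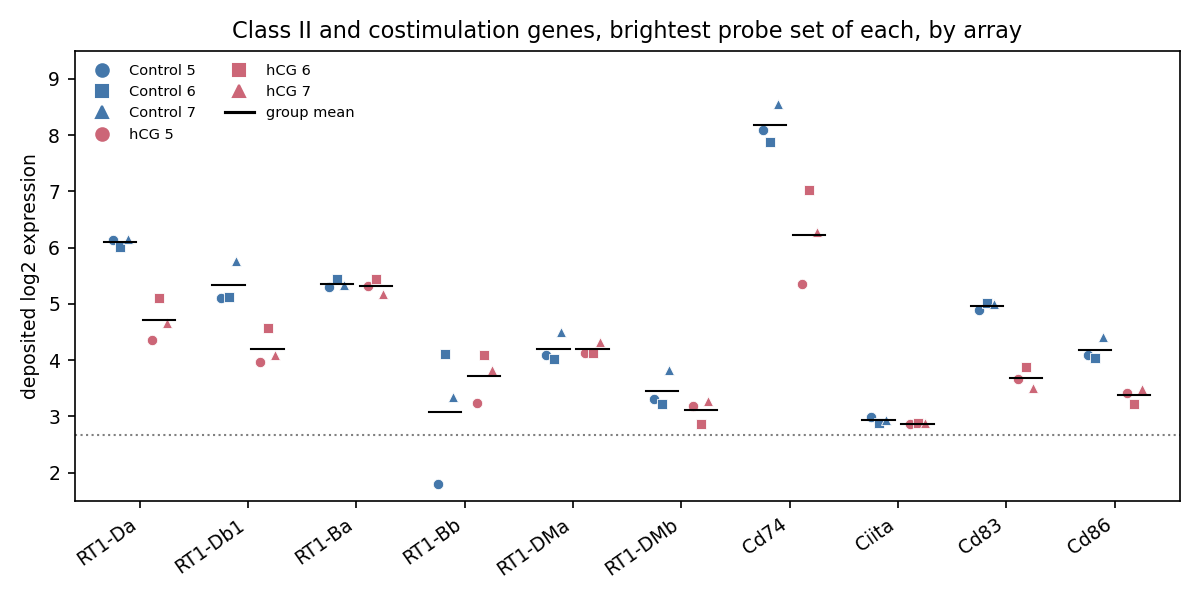
Deposited log2 expression (vertical axis) of the brightest probe set of each of the 10 genes on the 3 Control and 3 hCG arrays; points are arrays, black lines are group means and the dotted line is the filter level of 2.67. The hCG points of RT1-Da, RT1-Db1, Cd74, Cd83 and Cd86 lie clear of the Control points, while those of RT1-Ba, RT1-Bb, RT1-DMa and RT1-DMb overlap them.

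Over the 15 tested probe sets, 4 were called lower when p-values were adjusted over all 18625 probe sets, 1 each of RT1-Da, RT1-Ba, Cd83 and Cd86, against 0.789% of all probe sets. In 9 of the 15 the groups did not overlap and hCG was lower, against 12.4% of all probe sets.

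**Figure D2:**
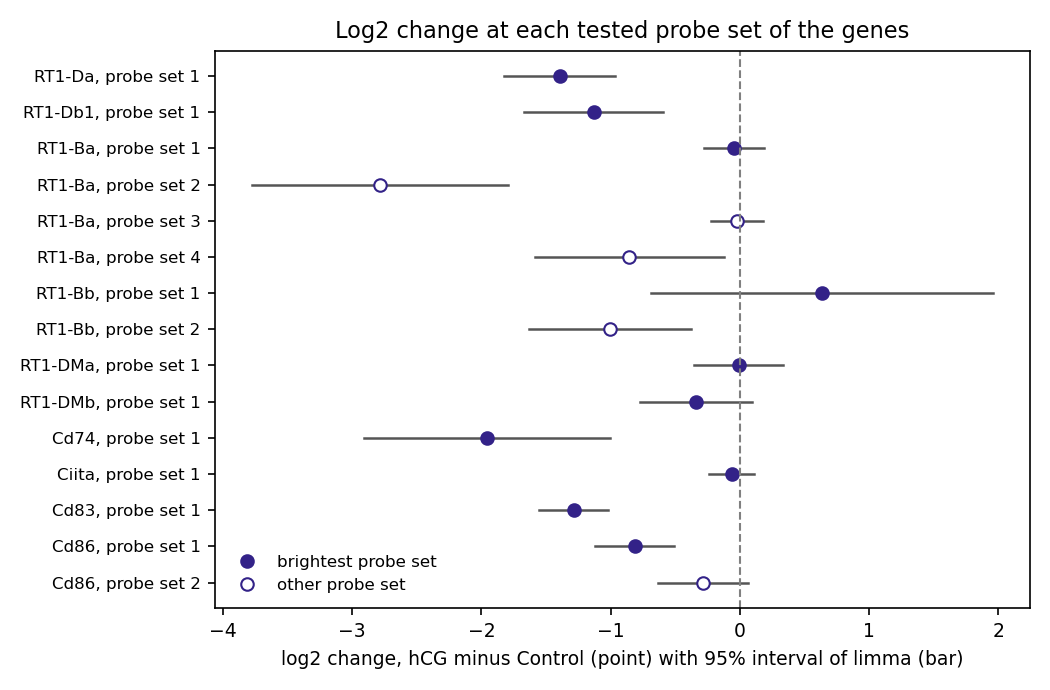
Log2 change, hCG minus Control (horizontal axis), with its 95% interval from limma for each of the 15 tested probe sets, ordered within a gene from brightest to dimmest; filled points are the brightest probe set of a gene and open points the others. The 4 RT1-Ba probe sets run from -2.79 to -0.02, and the 2 RT1-Bb probe sets lie on opposite sides of 0.

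These calls did not survive the loss of some arrays. With Control 5, Control 6, hCG 5 or hCG 7 removed, limma called 0 of the 10 genes and 0 of all genes. Unadjusted limma p-values under 0.05, in either direction, then numbered 1950, 1931, 1649 and 1455 of 10424 genes, and 2510 with every array in. In each of those 4 fits, and with every array in, 5 of the 10 genes were lower at an unadjusted p under 0.05. This count takes the lower direction alone, so it is not like for like with the counts over all genes. Without Control 7 the same 3 genes were called lower, Cd83, Cd86 and RT1-Da. That fit called 584 of all genes, 236 of them lower, against 190 and 85 with every array in. Without hCG 6, the hCG array of highest RT1-Da, RT1-Db1 and Cd74, Cd74 (-2.35, adjusted p = 0.0302) and RT1-Db1 (-1.31, adjusted p = 0.0432) passed and Cd86 did not (-0.74, adjusted p = 0.0542). Of all genes, 338 were then called, 152 of them lower. The sizes moved less: with 1 array left out in turn RT1-Da lay between -1.59 and -1.22, Cd83 between -1.38 and -1.20, Cd86 between -0.89 and -0.70, and Cd74 between -2.35 and -1.53.

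**Figure D3:**
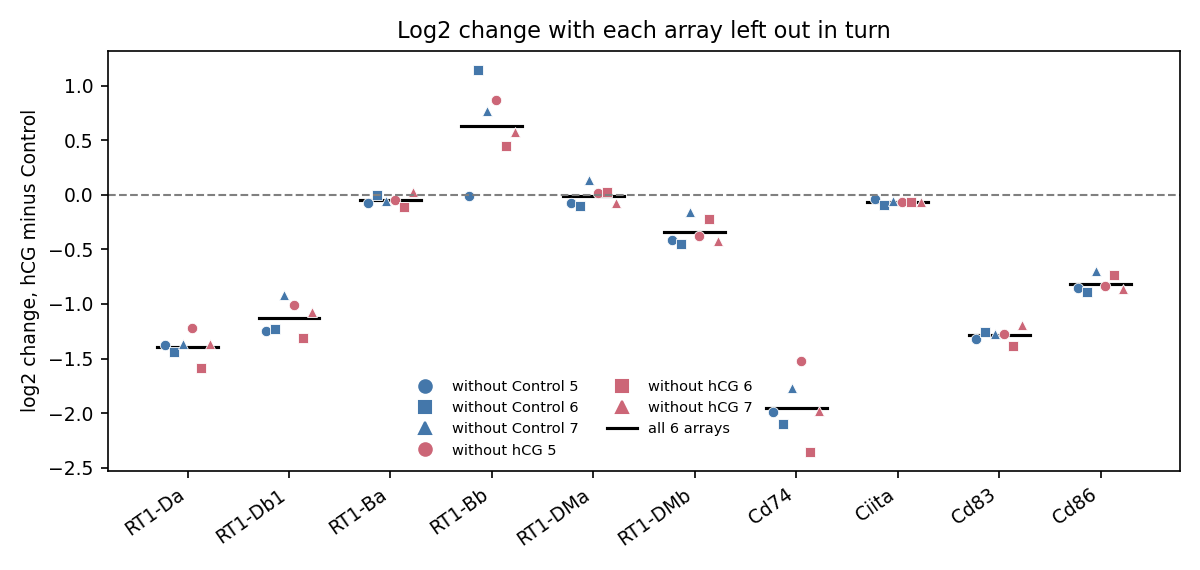
Log2 change, hCG minus Control (vertical axis), of each gene's brightest probe set with 1 array left out; each point is named by the array left out and the black line is the value with all 6 arrays. RT1-Da, RT1-Db1, Cd74, Cd83 and Cd86 stay below 0 in all 6 fits, and RT1-Bb falls from 0.63 to -0.01 without Control 5.

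Among the other genes that handle class II molecules, 1 of 9 tested fell and 0 rose, with a median of -0.18 and 8 of 9 below 0. Ctsd, the lysosomal protease cathepsin D, measured 9.21, 9.30 and 9.64 on the Control arrays and 8.60, 8.72 and 8.71 on hCG arrays. It fell by 0.71 on the log2 scale (SE 0.12, limma adjusted p = 0.0462). Sppl2a, the intramembrane protease that clears the last Cd74 fragment, had a change of -0.40 (SE 0.08, adjusted p = 0.054). Ctss, cathepsin S, which cuts Cd74 in antigen presenting cells, measured 6.01, 5.68 and 6.25 against 4.62, 5.59 and 5.65. The hCG values were lower without overlap but widely spread, and the change of -0.70 (SE 0.29) did not pass (adjusted p = 0.205). Marchf1, the ubiquitin ligase that removes class II and Cd86 from the surface, was below the filter level, and RT1-DOa and RT1-DOb were not analysed here.

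The DNA-binding partners and coactivators of Ciita showed 0 calls among 10 tested, with a median of 0.00. Nfyb, the B subunit of NF-Y, had the smallest p (0.25, SE 0.09, limma adjusted p = 0.162), followed by Nfya (-0.13) and Creb1 (0.24). The RFX subunits Rfx5, Rfxap and Rfxank had changes of -0.03, 0.10 and 0.01. Over all genes, 1.82% were called in either direction.

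Interferon gamma genes showed 0 calls among 10 tested, with a median of 0.11. The kinase gene Jak2 had the smallest p (0.57, SE 0.15, limma adjusted p = 0.0875), followed by the GTPase gene Gbp2 (0.24) and the chemokine gene Cxcl10 (0.37). The receptor genes Ifngr1 and Ifngr2 had changes of 0.12 and 0.11 and Irf1 one of 0.10. Type I interferon response genes showed 0 calls among 9 tested, with a median of -0.01: Ifit2 had a change of 0.59, Usp18 of -0.63 and Irf9 of -0.47 (adjusted p = 0.0839, 0.107 and 0.143). NF-kappaB genes showed 0 calls among 9, with a median of -0.10. The inhibitor gene Tnfaip3 had a change of 0.65 (adjusted p = 0.0663), Birc3 of -0.31 and Bcl3 of 0.27.

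Other costimulatory ligands gave 1 fall and 0 rises among 9 tested, with a median of 0.15. Tnfsf4, which encodes OX40 ligand, a costimulator found on activated antigen presenting cells, measured 4.96, 4.79 and 4.75 on the Control arrays and 2.68, 3.87 and 3.26 on the hCG arrays. The hCG arrays again ran from 5, the lowest, to 6, the highest. The change was -1.56 (SE 0.27), with limma adjusted p = 0.0462. Cd276, Tnfsf9 and Icoslg, which encode B7-H3, 4-1BB ligand and ICOS ligand, had changes of 0.46, 0.34 and 0.28 with hCG values above the controls, and none passed (adjusted p = 0.106, 0.107 and 0.174). Cd40 had a change of -0.01, and Cd80, the other ligand of CD28, lay near or below the filter level, between 2.31 and 2.85.

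MHC class I pathway genes showed 0 calls among 15 tested, with a median of 0.09. The peptide transporter gene Tap1 was at -0.35 (SE 0.10) and did not pass (limma adjusted p = 0.115); the immunoproteasome genes Psmb8 and Psmb10 had values of -0.55 and 0.51 (adjusted p = 0.142 and 0.16), and the light chain gene B2m -0.18. Psmb8 and Psmb10 thus lay on opposite sides of 0. RT1-A1, RT1-A2, RT1-CE3 and Tapbpl of this list matched no probe set and were not analysed here. The annotation's RT1-A, not on the list and singled out after its values were seen, fell (-1.14, SE 0.16, limma adjusted p = 0.0368), though near-identical class I copies leave it uncertain which gene its probe set reads.

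The spheres carried epithelial markers on every array, with Epcam between 6.36 and 7.97, Krt8 between 5.32 and 6.98 and Krt14 between 5.19 and 7.45, and 0 of 12 epithelial markers were called. As a mean log2 level over the 12, the list stood at 4.94, 5.95 and 6.49 on Control 5, 6 and 7. On hCG 5, 6 and 7 it stood at 5.59, 5.62 and 5.46, so the controls spread more widely, with Control 5 lowest. The list had a median change of -0.31 with 8 of 12 below 0, and none of the 12 had groups that parted. Its smallest p-values were those of the transcription factor gene Elf3 (-0.35) and the claudin genes Cldn7 and Cldn3 (-0.92 and -0.78; limma adjusted p = 0.226, 0.246 and 0.25). The keratin gene Krt7 was at -0.96, while Krt14 was at 0.92 and Krt8 at 0.11, and the part of epithelial makeup in the class II change was not tested. Markers of antigen presenting cells moved unevenly. In such mixed material, fewer cells of a type and less RNA per cell cannot be told apart.

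Of 10 general leukocyte markers 5 were tested, 4 lay below 0 and 0 were called, with a median of -0.90. Ptprc, the pan-leukocyte phosphatase CD45, measured 4.13, 3.81 and 3.55 on the Control arrays and 2.07, 3.19 and 2.97 on hCG arrays. Its groups did not overlap, hCG 5 was lowest and hCG 6 highest as for Cd74, and the change of -1.09 (SE 0.30) did not pass (limma adjusted p = 0.102). Coro1a, a leukocyte actin regulator, had a change of -1.20 (adjusted p = 0.0829) and Cd53 of -0.90 with overlapping groups (adjusted p = 0.177). Laptm5 (-0.225) and Itgb2 (0.05) overlapped between groups too. The summed level of the 5 markers, as log2 of their added linear values, ran from 7.48 to 8.21 on the control arrays and from 6.81 to 7.35 on hCG arrays. Cd53 was the brightest of the 5 on every array, so it weighs most in this sum. The sum was lower on every hCG array, but by a narrow margin and with no single marker called. The part of leukocytes in the class II change was not tested.

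Macrophage markers did not move as a block. Of 15 listed, 7 were tested, 5 above 0 and 2 below, with a median of 0.65 and 0 called. Cd68, a lysosomal glycoprotein, measured 8.41, 7.25 and 7.31 on the Control arrays and 6.06, 6.75 and 6.19 on hCG arrays (change -1.33, SE 0.34, limma adjusted p = 0.0879). The Fc receptor genes Fcgr2b and Fcer1g had hCG values above the controls, with changes of 0.89 and 0.78 (adjusted p = 0.0645 and 0.107). The summed level overlapped, from 7.98 to 8.93 on the control arrays and from 7.86 to 8.27 on hCG arrays, and 8 of the 15 markers, Csf1r, Cd163 and Itgam among them, lay below the filter level on average. Of these 8, Mrc1, the mannose receptor gene, measured 2.16, 1.98 and 1.54 on Control 5, 6 and 7 and 2.68, 3.49 and 3.92 on hCG 5, 6 and 7. Its groups did not overlap, with every hCG array higher; it was singled out after its values were seen and was not tested with the filter in place. C1qa, a complement gene, also had no overlap, but by a narrow margin, with a highest control of 2.41 and a lowest hCG array of 2.42.

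Of 13 dendritic cell markers 4 were tested and 0 called, with a median of 0.26 and a summed level from 5.68 to 6.43 on control and from 5.87 to 6.03 on hCG arrays. Ccl22, a chemokine gene of mature dendritic cells and activated macrophages, measured 4.22, 4.20 and 4.81 against 3.22, 3.67 and 3.35, a change of -0.996 (SE 0.20, limma adjusted p = 0.0559). Batf3 and Fscn1 had changes of 0.42 and 0.34, and Itgax, which encodes CD11c, one of 0.17 with overlapping groups. Flt3 and Clec9a lay below the filter level. The B cell genes Cd79b and Ms4a1 did too, with Cd79b at no more than 2.31, and of 9 B cell markers 1 was tested, Cd22 (0.09). The T cell genes Cd3e, Cd3d and Cd3g lay between 1.35 and 2.07, and of 11 T cell markers 2 were tested, Lck (0.32) and Il7r (-0.40).

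**Figure D4:**
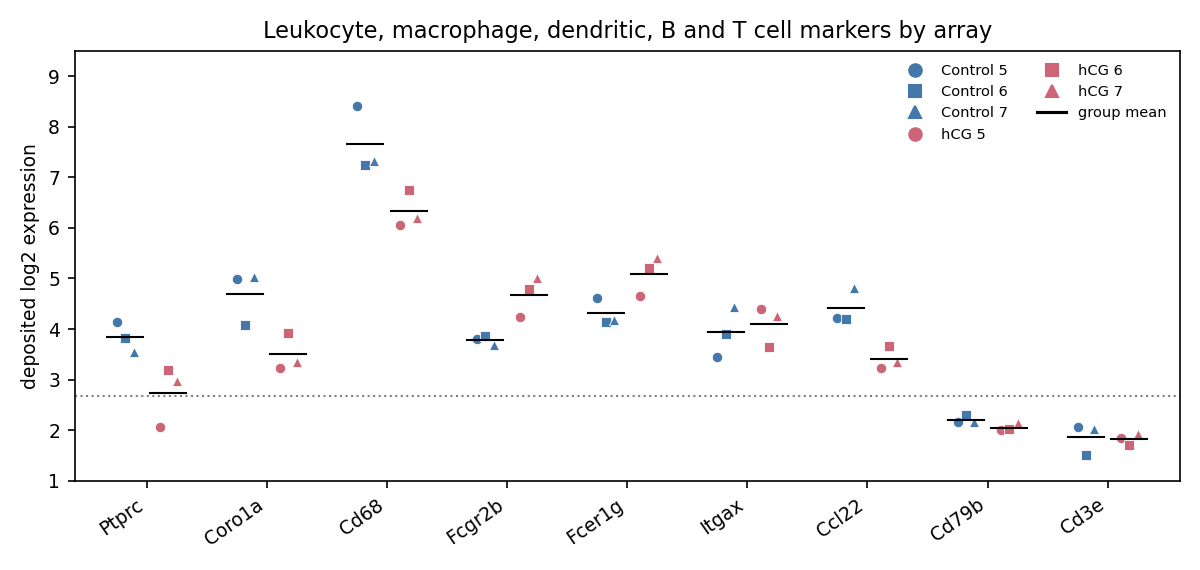
Deposited log2 expression (vertical axis) of 9 marker genes of leukocytes (Ptprc, Coro1a), macrophages (Cd68, Fcgr2b, Fcer1g), dendritic cells (Itgax, Ccl22), B cells (Cd79b) and T cells (Cd3e) on each array; black lines are group means and the dotted line is the filter level of 2.67. Ptprc, Coro1a, Cd68 and Ccl22 are lower on all hCG arrays, Fcgr2b and Fcer1g are higher, and Cd79b and Cd3e lie below the filter level on every array.

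Endothelial markers, by contrast with the class II genes, rose in 5 of 10 tested (Sox17, Esam, Emcn, Cd93 and Erg), with a median of 1.42 and all 10 above 0. Their summed level ran from 7.33 to 8.18 on the control arrays and from 9.05 to 9.20 on hCG arrays, and its part in the class II change was not tested. Transcripts spiked in before labelling were lower on hCG arrays as well, at 4.51 ± 0.34 (SD, n = 3) against 5.56 ± 0.14 (SD, n = 3) as a mean log2 level over 24 probe sets. They were at 4.32, 4.90 and 4.31 on hCG 5, 6 and 7. Transcripts spiked in at hybridisation were at 7.40 ± 0.13 (SD, n = 3) on hCG and 7.61 ± 0.15 (SD, n = 3) on control arrays over 18 probe sets. Those groups overlapped, with hCG 6 at 7.55 and Control 6 at 7.50. The excess of 3′ over 5′ signal at Actb, which grows as RNA degrades, was 1.76 ± 0.37 (SD, n = 3) on control and 1.63 ± 0.11 (SD, n = 3) on the hCG arrays. The part of the spike differences in these results was not tested.

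The 5 genes whose levels most resembled the mean profile of RT1-Da, RT1-Db1, RT1-Ba, RT1-Bb and Cd74 over the 6 arrays were Wrap73, Bsg, Irf9, Prickle1 and Fbxw2, with Pearson correlations from 0.992 to 0.996. The profile was -0.77, 0.02 and -0.42 on hCG 5, 6 and 7 and 0.06, 0.50 and 0.61 on Control 5, 6 and 7, each relative to the gene's own mean. RT1-Da, RT1-Db1 and Cd74 correlated with this profile at 0.91, 0.94 and 0.94, but RT1-Ba and RT1-Bb only at 0.48 and 0.08. Its Control 5 value includes the low RT1-Bb reading of 1.79, so it is not a pattern shared by all 5 class II genes. The 6 points share the group difference, and no p is given. Changes of these 5 lay between -0.47 and -0.13, and none passed (limma adjusted p from 0.143 to 0.335).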

How the data were processed

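Analysis began from log2 expression values of 31099 probe sets on 6 arrays, as deposited. RMA, MAS5 and limma appear in the submitters' processing notes without roles or versions. The log base and normalization are not stated: values from 0.74 to 13.1 and column medians from 3.44 to 3.48 led to their being taken as log2 after normalization between arrays, which hides a change shared by most genes. Scanner files were not used here.

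The 57 control probe sets and the dimmest 40% of the others by mean (below 2.67) were left out, leaving 18625. Genes came from the platform annotation, updated by Entrez number to RefSeq symbols. The groups were compared in limma 3.58.1 (lmFit, eBayes; R 4.3.3), two-sided, 4 residual degrees of freedom, no block, with Benjamini-Hochberg adjustment over 1 probe set per gene (10424). The fit was tested on simulated data. Promoters are from RefSeq (GRCr8).

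The members and lists were chosen with earlier results of these data known. Named genes are all members, called genes and the 3 of smallest p of each list, defining markers, and a few others named from their lists. Alternatives were the filter, normalization, array number as a block, array weights, eBayes settings, probe set choice, adjustment, and each array left out.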

Additional observations from a re-analysis of the deposited data

How the results depend on the processing

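The count of called members was 3 with no filter, median centring, quantile normalization, cyclic loess, variance trend, robust eBayes and adjustment over probe sets, 4 with probe sets averaged, 5 with array weights (Cd74 and RT1-Db1 added), and 1 of 4 tested with the dimmest 60% left out. Leaving out 1 array gave 0 to 4 members, 0 to 584 of all genes and 0 to 17 genes of the other lists, against 3, 190 and 7. All genes called were 267 of 14217 with no filter and 159 of 7962 with the dimmest 60% left out. Of 10424 genes, 2663 were called with array weights, 306 with a variance trend and 253 with probe sets averaged. Median centring, quantile normalization, cyclic loess, robust eBayes and adjustment over probe sets gave between 177 and 210. Array number as a replicate block gave 118 and left the same 3 members called. The numbers were not taken to pair arrays, since no pairing is stated. Deviations of same-numbered arrays correlated at -0.09, 0.13 and 0.00, and those of differently numbered arrays from -0.193 to 0.176. With 3 arrays per group these values cannot settle whether arrays were paired. Signs reversed in members near 0 or with discordant probe sets: RT1-DMa was 0.003 with median centring and 0.19 with array weights, and RT1-Bb -0.19 with probe sets averaged. With 1 array left out RT1-DMa lay between -0.100 (without Control 6) and 0.14 (without Control 7; also above 0 without hCG 5 or hCG 6), RT1-Ba between -0.109 and 0.027 (without hCG 7; 0.002 without Control 6), and RT1-Bb between -0.011 (without Control 5) and 1.148 (without Control 6). The number of arrays and the dim signal of Ciita, RT1-Bb and RT1-DMb limit these results.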

Other observations

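Outside the class II members, 10 genes whose symbols begin with RT1 were tested, most of them class I or class I-like; this group was formed after their values were seen. They were split, with 5 below and 5 above 0 and a median log2 change of -0.02. RT1-A, a classical class I gene, measured 4.73, 4.40 and 4.62 on Control 5, 6 and 7 and 3.70, 3.48 and 3.14 on hCG 5, 6 and 7, a change of -1.14 (SE 0.16, limma adjusted p = 0.0368). RT1-CE16 lay the other way, at 4.09, 5.19 and 4.79 on the Control arrays and 5.62, 5.45 and 5.72 on hCG arrays, a change of 0.90 that did not pass (adjusted p = 0.111). Class I genes of the rat are near-identical copies that differ in number between strains, so which gene a probe set reads is uncertain. Among the 3 tested RT1-CE5 probe sets the changes were -1.15, -0.68 and 0.13, of which the last belongs to the brightest.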
